A study of Mus musculus with 13 samples.

Results

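SINE B2 small RNAs were examined in male mouse germ cells. The rule took every listed consensus sequence of the B2 family, B2_Mm1a, B2_Mm1t and B2_Mm2, which were 3 of the 262 retrotransposon sequences in the tables, and read their sense and antisense abundance in each length column. All 13 libraries came from FACS-purified germ cells of C57BL6/J mice at 3 to 4 weeks after birth. A first set held single libraries of spermatogonia (SG, 1 library), leptotene/zygotene (L/Z) spermatocytes (LZ, 2 biological replicates), pachytene/diplotene spermatocytes (PD, 1 library) and round spermatids (RS, 1 library). All libraries of this set were sequenced in 50-bp runs. A second set held technical replicates of SG (SG_T, 2 biological replicates) and of L/Z (LZ_T, 2 biological replicates), each sequenced in a 50-bp and a 100-bp run that were averaged here. The sample labels gave no genotype. The header cells of the tables of the second set carried a Pld6 knockout tag, and both wild-type and Pld6 knockout germ cells were profiled in the study. A difference between the sets therefore joins whatever genotype and preparation differed between them, and these cannot be told apart.

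B2 is a short interspersed element of rodents that derives from a tRNA and is transcribed by RNA polymerase III. It encodes no protein and depends on the machinery of LINE-1 for its movement. PIWI-interacting RNAs (piRNAs) are germ-cell small RNAs that guide PIWI proteins to retrotransposon transcripts, and Pld6 encodes a protein of the outer mitochondrial membrane that acts in the processing of their precursors. Antisense piRNAs can pair with the element's RNA, and sense piRNAs carry the sequence of that RNA. Reads of 24-33 nt were taken as piRNA-sized here, after the length the study used, and RPM is the read number scaled to the size of the library. A consensus stands for many genomic copies, so the 3 sequences have no single genome position. Reads that matched several sequences were divided among them, so the division between the 3 B2 sequences is uncertain. Antisense 11-18 nt reads, for instance, gave 76.4 RPM for B2_Mm1a and 76.9 RPM for B2_Mm1t in SG.

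The libraries of the first set held 12541019 to 29956080 reads, and the samples of the second set held 1810805 to 10764026 over both runs, with 852565 to 7725276 in a single run. Reads of 24-33 nt made up 29.8% of the SG list, 39.3% and 45.2% of the LZ lists, 84.5% of the PD list and 83.1% of the RS list, against 12.4% to 24.8% in the 8 libraries of the second set. miRNA markers were read from the same lists. The meiotic marker miR-449a-5p was at 5.57 RPM in SG, 24.2 and 36.1 RPM in the LZ libraries, 92.9 RPM in PD and, in RS, 161 RPM, and its relative miR-34b-5p ran from 0.376 RPM in SG to 37.4 RPM in RS. In LZ_T, miR-449a-5p was at 11.9 to 12.1 RPM, below both LZ libraries, and in SG_T at 1.57 to 5.88 RPM. The 1 marker listed for Sertoli and Leydig cells, miR-202-5p, was at 3899 to 6266 RPM in LZ_T, at 421 to 450 RPM in SG_T, at 208 RPM in SG and at 15.8 to 38.0 RPM in LZ. The spermatogonial and proliferation markers miR-17-5p and miR-20a-5p were at 118 and 425 RPM in SG, and differed between the LZ libraries, with 23.1 against 112 RPM and 91.4 against 473 RPM. Against the stage labels, both were higher in LZ_T, at 178 to 190 RPM and 597 to 809 RPM, than in SG_T, at 60.2 to 117 RPM and 215 to 421 RPM. Both red blood cell markers, miR-451a and miR-144-3p, were at no more than 16.3 RPM in any sample. The part of these differences in the B2 values was not tested.

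The first question was how B2 piRNA-sized reads changed over the stages of the first set. B2 reads were most abundant in spermatogonia and least abundant in round spermatids, and most of the difference was on the sense strand. B2_Mm1a had 1461 RPM of 24-33 nt reads in SG, 827 and 948 RPM in the LZ libraries, 119 RPM in PD and, in RS, 53.7 RPM. B2_Mm1t had 1008 RPM in SG, 659 and 699 RPM in the LZ libraries, 124 RPM in PD and, in RS, 49.4 RPM. B2_Mm2 had 723 RPM in SG, 475 and 623 RPM in the LZ libraries, 211 RPM in PD and, in RS, 50.8 RPM. For each sequence the stages ran in the order SG, LZ, PD, RS, and the LZ libraries did not overlap any other stage. B2_Mm1a was the highest of the 3 in SG and LZ, B2_Mm2 was the highest in PD, and the 3 were within 5 RPM of each other in RS. SG, PD and RS had 1 library each, so these differences have no test.

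The B2 sum over the 3 sequences was 3192 RPM in SG and 2116 ± 218 RPM (SD, n = 2) in LZ. In PD it was 454 RPM, and RS had 154 RPM. From LZ to PD the sum was 4.66-fold lower, and from PD to RS 2.95-fold lower. All 3 members were more than 2-fold lower in PD than in LZ, against 40.4% of the 94 retrotransposons that reached 10 RPM in LZ or PD. All 3 were also more than 2-fold lower in RS than in PD, against 44.7% of 85 retrotransposons. Levels of B2 against other reads depend on the scale, because 24-33 nt reads took a far larger share of the PD and RS libraries. The log2 ratio of the B2 sum between LZ and PD ran from -3.23 to -0.62 over the 5 scalings tried, and that between SG and RS from -5.85 to -2.04, with no change of sign. From PD to RS the sum was 1.26-fold lower per listed total and 1.31-fold lower per listed total without SINE, so the 2-fold difference at that step held only in RPM, per 19-23 nt reads and per 24-33 nt reads.

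The strands took different courses. Sense reads were lower at each later stage. B2_Mm1a sense reads were at 1410 RPM in SG, 748 and 838 RPM in the LZ libraries, 11.1 RPM in PD and, in RS, 3.06 RPM. B2_Mm1t sense reads were at 961 RPM in SG, 590 and 616 RPM in the LZ libraries, 23.5 RPM in PD and, in RS, 3.34 RPM. B2_Mm2 sense reads were at 607 RPM in SG, 330 and 428 RPM in the LZ libraries, 24.5 RPM in PD and, in RS, 10.7 RPM. The log2 ratio of the summed sense level in PD to that in LZ was -4.91. All 3 members were more than 2-fold lower on the sense strand in PD than in LZ, against 60.8% of the 74 retrotransposons compared, whose median log2 ratio was -1.75.

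In RPM, antisense reads did not follow the sense reads down from SG to PD, but both strands were lower in RS than in PD. B2_Mm1a antisense reads were at 51.0 RPM in SG, 79.0 and 110 RPM in the LZ libraries, 108 RPM in PD and, in RS, 50.7 RPM. B2_Mm1t antisense reads were at 46.9 RPM in SG, 69.0 and 82.9 RPM in the LZ libraries, 101 RPM in PD and, in RS, 46.1 RPM. B2_Mm2 antisense reads were at 117 RPM in SG, 145 and 195 RPM in the LZ libraries, 186 RPM in PD and, in RS, 40.2 RPM. The PD value lay within the range of the LZ libraries for B2_Mm1a and B2_Mm2 and above both for B2_Mm1t. In RPM, the log2 ratio of antisense reads in RS to those in SG was -0.01 for B2_Mm1a, -0.02 for B2_Mm1t and -1.52 for B2_Mm2. For the antisense sum this ratio was -0.65 in RPM and -2.13 per 24-33 nt reads, and turned to between 1.30 and 1.68 under the other 3 scalings, so no direction is given for it. The summed antisense change from LZ to PD had a log2 ratio of 0.22 in RPM and changed sign, to -0.81, when divided by the 24-33 nt share of the library, so none is given here either. From PD to RS the antisense sum was 2.89-fold lower in RPM, beside 3.46-fold for the sense sum. The antisense log2 ratio at this step ran from -1.60 to -0.31 over the 5 scalings. In RPM all 3 members were more than 2-fold lower, against 61.7% of 60 retrotransposons on this strand.

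**Figure D1:**
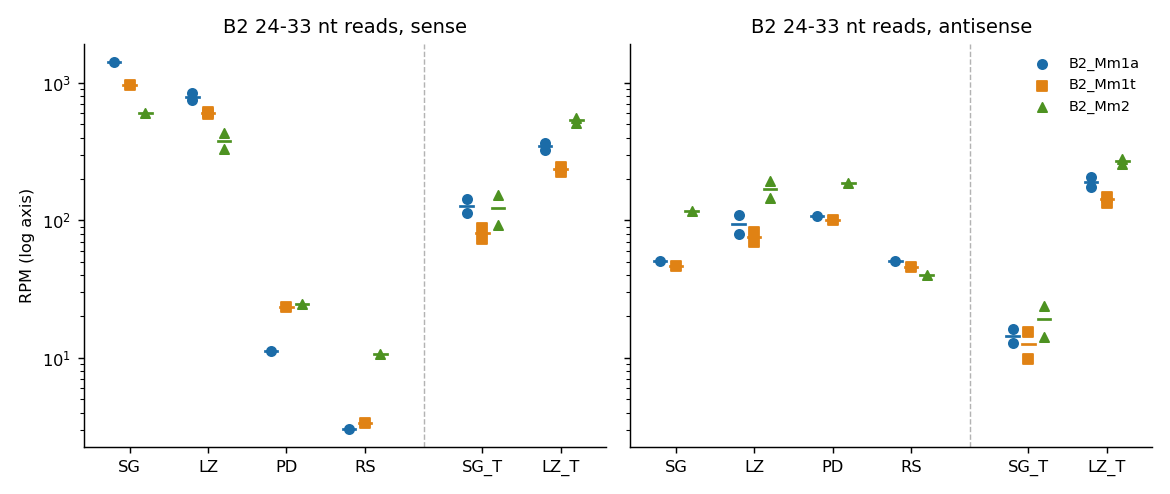
RPM of 24-33 nt reads (log axis) for B2_Mm1a, B2_Mm1t and B2_Mm2 on the sense strand (left) and the antisense strand (right); points are biological samples, short lines are group means, and the dashed line separates the first set from the set with technical replicates. In the first set, sense values go from 1410, 961 and 607 RPM in SG to 3.06, 3.34 and 10.7 RPM in RS, and antisense values stay between 40.2 and 195 RPM; the order of the 2 stages of the second set holds for RPM and turns on the sense strand when values are rescaled to the listed retrotransposon total.

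As a result the strand balance of B2 turned over between LZ and PD, and this measure does not depend on how the libraries were scaled. Antisense reads were 6.72% of B2 24-33 nt reads in SG (95% Wilson interval 6.49% to 6.96%) and 15.0% and 17.1% in LZ. They were 87.0% in PD (86.1% to 87.8%) and 88.9% in RS (87.4% to 90.2%). The intervals cover counting error only, and the reads behind them were approximated from RPM and the list totals, about 42412 for SG and 1931 for RS. B2_Mm1a had an antisense share of 3.49% in SG and 90.6% in PD, and B2_Mm1t of 4.65% in SG and 81.1% in PD. B2_Mm2 stood apart in the early stages, with 16.1% in SG and 30.6% and 31.3% in LZ, where B2_Mm1a had 9.55% and 11.6%. In RS, B2_Mm2 had the lowest antisense share of the 3, 79.0% against 93.2% and 94.3%. SINE B1, the other SINE family listed, had 41.7% antisense in SG, 50.3% and 47.9% in the LZ libraries, 75.1% in PD and, in RS, 66.2% over its 3 sequences. B1_Mus2 alone went from 40.7% antisense in SG to 89.4% in PD, above the 87.0% of the B2 sum.

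Length changed along with strand. Of B2 antisense 24-33 nt reads, 41.0% were 28-33 nt long in SG, 53.5% and 44.6% in the LZ libraries, 83.3% in PD (82.3% to 84.3%) and 83.5% in RS (81.7% to 85.2%). The same share of sense reads was 33.9% in SG, 28.2% and 28.6% in the LZ libraries, 67.6% in PD (64.2% to 70.7%) and 70.0% in RS (63.6% to 75.8%). Both strands therefore held longer piRNA-sized reads in PD and RS than in either LZ library. All 3 sequences had an antisense 28-33 nt share of 79.8% or more in PD and RS and of 59.5% or less in SG and LZ. B2_Mm2 antisense 28-33 nt reads were at 45.5 RPM in SG, 73.1 and 86.2 RPM in the LZ libraries, 153 RPM in PD and, in RS, 32.04 RPM.

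**Figure D2:**
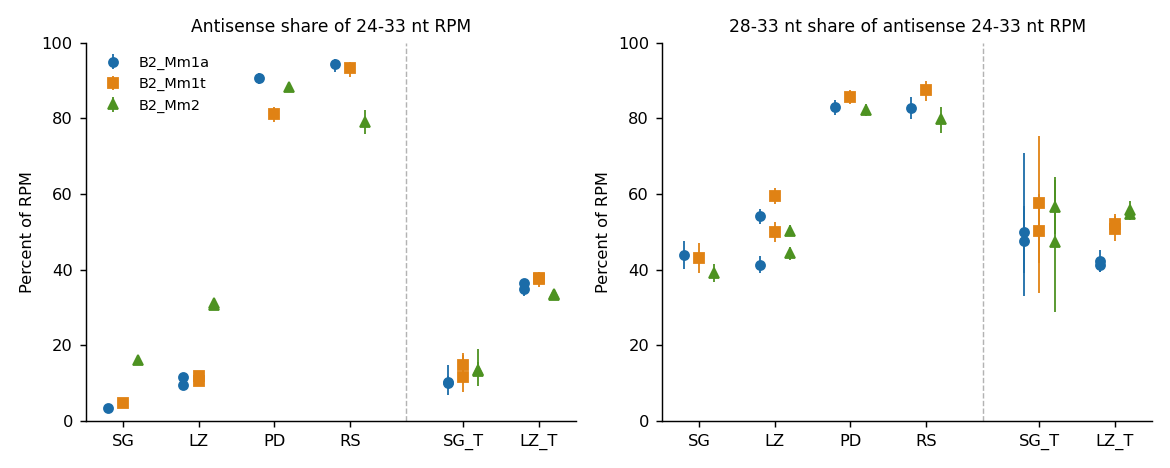
Antisense share of 24-33 nt RPM (left) and share of 28-33 nt in antisense 24-33 nt RPM (right), in percent, for each B2 sequence; points are biological samples, bars are 95% Wilson intervals from approximate reads, and the dashed line separates the sets. The antisense share is 3.49% to 31.3% in SG and LZ, 79.0% to 94.3% in PD and RS, and 33.3% to 37.7% in LZ_T.

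Shorter B2 reads behaved differently from piRNA-sized ones. Reads of 24-33 nt were 51.9% of all B2 11-48 nt RPM in SG, 41.9% and 45.3% in the LZ libraries, 41.9% in PD and, in RS, 28.8%. Without the 11-18 nt reads, they were 65.1% of 19-48 nt RPM in SG and 63.9% ± 1.88 (SD, n = 2) in LZ. In PD they were 54.3% of it and, in RS, 42.8%. Among sense reads the 24-33 nt share of 11-48 nt RPM went from 60.1% in SG to 20.01% in PD and, in RS, 9.10%. The share of 19-23 nt sense reads went from 17.7% to 55.6% and 58.3%. B2_Mm2 carried most of these in PD and RS. Its 19-23 nt sense reads were at 270 RPM in SG, 212 and 212 RPM in the LZ libraries, 128 RPM in PD and, in RS, 83.6 RPM. B2_Mm1a sense reads of the same length were at 372 RPM in SG, 247 and 215 RPM in the LZ libraries, 22.4 RPM in PD and, in RS, 16.4 RPM. In PD, 33.5% of B2_Mm2 19-23 nt reads were antisense, against 74.2% for B2_Mm1a and 82.7% for B2_Mm1t. B2_Mm2 thus had mostly sense 19-23 nt reads in PD, where its 24-33 nt reads were 88.4% antisense.

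**Figure D3:**
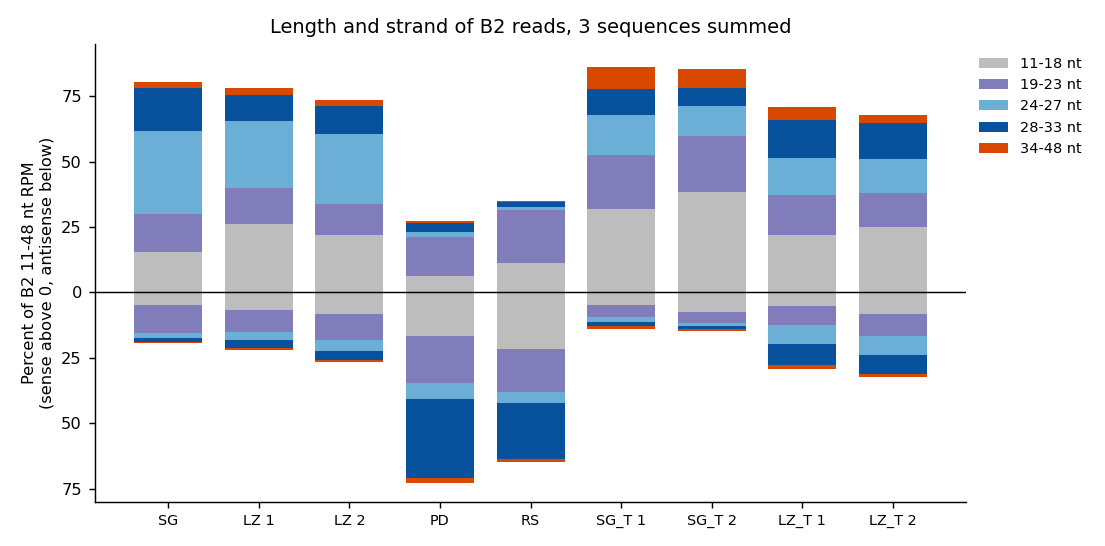
Composition of B2 reads, with the 3 sequences summed, in percent of the 11-48 nt RPM of each biological sample; sense reads are above 0 and antisense reads below, and colours are length classes. Antisense reads make up 72.7% in PD and, in RS, 65.0%, mostly of 28-33 nt and shorter classes, against 13.9% to 32.2% in the other samples.

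The second comparison set L/Z against SG within the set with technical replicates, the only stage comparison with replicates on both sides. B2 24-33 nt reads were 3.76-fold to 5.78-fold higher in LZ_T than in SG_T, and antisense reads differed by more than sense reads. B2_Mm1a had 160 and 125 RPM in SG_T and 500 and 570 RPM in LZ_T. B2_Mm1t had 104 and 83.2 RPM in SG_T and 360 and 395 RPM in LZ_T. B2_Mm2 had 178 and 107 RPM in SG_T and 769 and 835 RPM in LZ_T. The groups did not overlap for any of the 3, nor did single runs: the highest B2_Mm1a run of SG_T was at 196 RPM and the lowest of LZ_T at 367 RPM. In limma on log2(RPM + 1) over the 58 retrotransposons whose mean reached 1 RPM, the log2 change was 1.91 for B2_Mm1a (SE 0.34, adjusted p = 0.00051), 2.01 for B2_Mm1t (SE 0.33, adjusted p = 0.00033) and 2.53 for B2_Mm2 (SE 0.36, adjusted p = 0.00017). All 3 passed, where 43.1% of the retrotransposons tested were called higher and the median log2 change was 0.80. The labels call the replicates biological, but nothing states that they came from separate animals. The p-values rest on the spread between these samples, which may not be that between animals. limma draws this spread in part from all retrotransposons tested. In the sense fit below, all B1 and B2 sequences had the same SE of 0.39, so the p-values there rest on a pooled spread.

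On the sense strand B2_Mm1a had 144 and 112 RPM in SG_T and 326 and 363 RPM in LZ_T, and B2_Mm2 had 154 and 92.8 RPM against 511 and 557 RPM. The sense log2 change was 1.43 for B2_Mm1a (adjusted p = 0.0011), 1.53 for B2_Mm1t (adjusted p = 0.00052) and 2.15 for B2_Mm2 (adjusted p = 1.3e-06) in limma, and 50% of 48 retrotransposons were called higher. On the antisense strand B2_Mm1a had 16.1 and 12.8 RPM in SG_T and 174 and 207 RPM in LZ_T. B2_Mm1t had 15.4 and 9.75 RPM against 135 and 149 RPM, and B2_Mm2 had 23.96 and 14.2 RPM against 258 and 278 RPM. The antisense log2 change was 3.63 for B2_Mm1a (SE 0.33), 3.42 for B2_Mm1t (SE 0.35) and 3.79 for B2_Mm2 (SE 0.36), and all 3 passed in limma with adjusted p-values from 6.9e-05 to 9.1e-05, where 48.7% of 39 retrotransposons were called higher.

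The rise in RPM did not hold as a share of retrotransposon reads. The listed retrotransposons together had 3745 and 2800 RPM of 24-33 nt reads in SG_T and 22388 and 23471 RPM in LZ_T, most of it B1 in LZ_T. B2 made up 11.8% and 11.3% of them in SG_T and 7.27% and 7.67% in LZ_T. Rescaled to that total, the log2 change turned to -0.92 for B2_Mm1a (adjusted p = 0.023, limma) and -0.81 for B2_Mm1t (adjusted p = 0.035), and was -0.27 for B2_Mm2 (adjusted p = 0.44). This scaling moved the median of all retrotransposons by -2.41 and the calls from 25 higher and 0 lower to 0 higher and 42 lower, so the B2 sequences were still above the median of -1.60. Per listed total without SINE the calls were 3 higher and 38 lower, with a median shift of -1.92, and no B2 sequence passed. Only the antisense change kept its direction in all 5 scalings and all 3 sequences, with B2_Mm1a at 0.88 (adjusted p = 0.031), B2_Mm1t at 0.67 (adjusted p = 0.077) and B2_Mm2 at 1.02 (adjusted p = 0.018) per listed total. The miRNA marker miR-202-5p, at 421 to 450 RPM in SG_T and 3899 to 6266 RPM in LZ_T, moved with the B2 values within this set. Between the sets it was higher in SG_T than in SG and in LZ_T than in LZ, while B2_Mm1a and B2_Mm1t were lower in both. B2_Mm2 was lower in SG_T than in SG and higher in LZ_T than in LZ. The part of miR-202-5p in the result was not tested.

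The antisense share, which no scaling affects, was 12.6% and 11.7% in SG_T and 34.8% and 35.2% in LZ_T. The difference of 22.9 percentage points was larger than the SD of either group, 0.631 and 0.304 points, and the groups did not overlap. The two-sided exact permutation test gave p = 0.333, the smallest that 2 against 2 samples allow. Each sequence showed it: B2_Mm1a went from 10.2% ± 0.13 (SD, n = 2) to 35.6% ± 1.11, B2_Mm1t from 13.3% ± 2.196 to 37.6% ± 0.176, and B2_Mm2 from 13.4% ± 0.137 to 33.5% ± 0.196. In the first set the same share was 6.72% in SG and 16.0% ± 1.49 (SD, n = 2) in LZ. Reads of 24-33 nt made up 28.8% and 20.6% of B2 11-48 nt RPM in SG_T and 43.9% and 41.0% in LZ_T, a difference of 17.8 points (exact permutation test, two-sided, p = 0.333). This length share also moved between the runs of a sample. The first SG_T sample had 755 RPM of 11-18 nt and 322 RPM of 24-33 nt reads in its 50-bp run. In its 100-bp run it had 372 and 560 RPM.

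By length class and strand, 21 of the 30 values of the 3 sequences passed in LZ_T against SG_T, each of them higher, against 12.1% of all 867 values tested. That share pools unlike fits. At 24-27 nt, 51.4% of sense and 57.1% of antisense values were called higher, and at 28-33 nt 53.3% on each strand. On the antisense strand the share was 2.29% at 11-18 nt, 17.9% at 19-23 nt and 40.9% at 34-48 nt. All 15 antisense values passed, in each of the 5 length classes. At 11-18 nt all 262 retrotransposons reached the filter, against 30 at 28-33 nt. How specific these shortest reads are to B2 is therefore uncertain, and the study analysed reads of 24-33 nt. Of the sense values, the 6 at 24-27 nt and 28-33 nt passed and the 9 at 11-18, 19-23 and 34-48 nt did not. B2_Mm2 sense 28-33 nt reads had a log2 change of 2.88 (adjusted p = 1.6e-08, limma), and its sense 19-23 nt reads one of 0.97 (adjusted p = 0.10). In the sense 28-33 nt fit the SEs of the B1 and B2 sequences lay between 0.409 and 0.413. They were identical in the antisense fits at 11-18, 19-23, 24-27 and 34-48 nt. The p-values of these fits therefore rest largely on a pooled spread. Without the second LZ_T replicate the count was 12, and without the second SG_T replicate 13, as it was per listed total without SINE. B2_Mm2 sense reads also became longer, with 33.1% ± 0.736 (SD, n = 2) of 28-33 nt among 24-33 nt in SG_T and 55.9% ± 3.52 in LZ_T. For B2_Mm1t the same share overlapped between the groups, at 40.3% ± 2.54 and 42.9% ± 2.81. Over the 3 B1 sequences it was 32.5% ± 1.36 in SG_T and 58.7% ± 0.621 in LZ_T.

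The third comparison set L/Z of the set tagged Pld6 knockout (LZ_T) against L/Z of the first set (LZ), the only comparison between the sets with replicates on both sides. B2 reads were within 1.80-fold of their LZ level in LZ_T, in a comparison where most retrotransposons were lower. B2_Mm1a had 827 and 948 RPM in LZ against 500 and 570 RPM in LZ_T, a log2 change of -0.73 (SE 0.44, adjusted p = 0.11, limma). B2_Mm1t had 659 and 699 RPM against 360 and 395 RPM, a log2 change of -0.85 (SE 0.44, adjusted p = 0.061). B2_Mm2 had 475 and 623 RPM against 769 and 835 RPM, a log2 change of 0.56 (SE 0.44, adjusted p = 0.22). None of the 3 passed, and at an unadjusted p under 0.05 the count was also 0. All B1 and B2 sequences had the same SE in this fit, so the p-values rest on a spread pooled over the retrotransposons. The narrower spread of a single sequence did not enter them. Of the 136 retrotransposons tested, 91.9% were called lower and 2.21% higher, and the median log2 change was -2.87. The 3 called higher were the B1 sequences, at log2 changes of 2.39 to 2.49. The samples of the groups did not overlap for any B2 sequence. LZ had 50-bp runs only, and with the 50-bp runs of LZ_T alone 2 of the 3 sequences passed. When the first or the second LZ replicate was left out, 2 of the 3 passed. Per listed total without SINE all 3 passed as higher, at log2 changes of 1.81, 1.70 and 3.10, where the median moved by 1.30 and the calls over all retrotransposons from 3 higher and 125 lower to 15 higher and 75 lower.

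**Figure D4:**
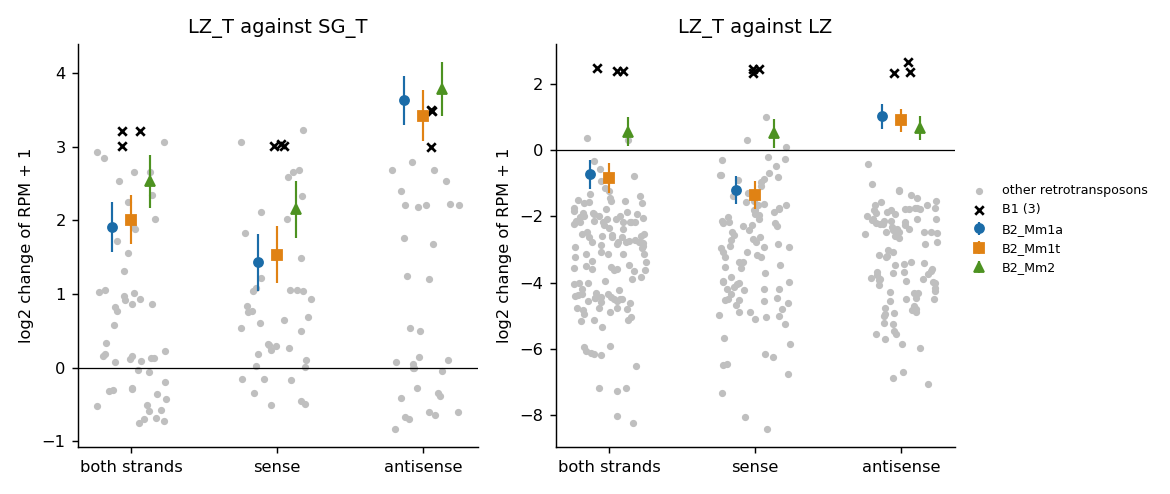
Log2 change of RPM + 1 of 24-33 nt reads, on both strands, the sense strand and the antisense strand, in LZ_T against SG_T (left) and LZ_T against LZ (right); grey points are single retrotransposons, crosses the 3 B1 sequences, and coloured points the B2 sequences with their SE. On both strands the B2 sequences are at 1.91 to 2.53 on the left (between -0.92 and -0.27 when rescaled to the listed total) and at -0.85 to 0.56 on the right (1.70 to 3.10 per listed total without SINE), where the median of all is -2.87.

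The strands of B2_Mm1a and B2_Mm1t differed between the sets in opposite directions. On the sense strand B2_Mm1a had 748 and 838 RPM in LZ and 326 and 363 RPM in LZ_T, a log2 change of -1.20 (SE 0.42, adjusted p = 0.018, limma). B2_Mm1t had 590 and 616 RPM against 225 and 246 RPM, a log2 change of -1.35 (SE 0.42, adjusted p = 0.0092). Both were lower in LZ_T, as were 82.7% of the 104 retrotransposons tested, with 3.85% higher, and relative to the listed total without SINE both turned to higher, at 1.34 and 1.19. Both calls were lost when either LZ_T replicate was left out. B2_Mm2 sense reads were at 330 and 428 RPM in LZ and 511 and 557 RPM in LZ_T, a log2 change of 0.50 (SE 0.43, adjusted p = 0.28).

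On the antisense strand all 3 had higher values in LZ_T. B2_Mm1a had 79.0 and 110 RPM in LZ and 174 and 207 RPM in LZ_T, a log2 change of 1.02 (SE 0.37, adjusted p = 0.023, limma). B2_Mm1t had 69.0 and 82.9 RPM against 135 and 149 RPM, a log2 change of 0.90 (SE 0.36, adjusted p = 0.034). B2_Mm2 had 145 and 195 RPM against 258 and 278 RPM, a log2 change of 0.67 (SE 0.37, adjusted p = 0.10). Only 4.76% of 105 retrotransposons were called higher on this strand and 93.3% lower; the 5 called higher were these 2 B2 sequences and the 3 B1 sequences. The antisense direction held in all 5 scalings for all 3 sequences, while the calls of the 2 sequences were lost when either LZ_T replicate was left out, with a pseudocount of 0.1 and when divided by the share of 19-23 nt reads. The calls of these 2 sequences were also lost with the 50-bp runs of LZ_T alone, the run length of LZ. miR-202-5p was at 15.8 to 38.0 RPM in LZ and 3899 to 6266 RPM in LZ_T, and its part in the result was not tested.

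**Figure D5:**
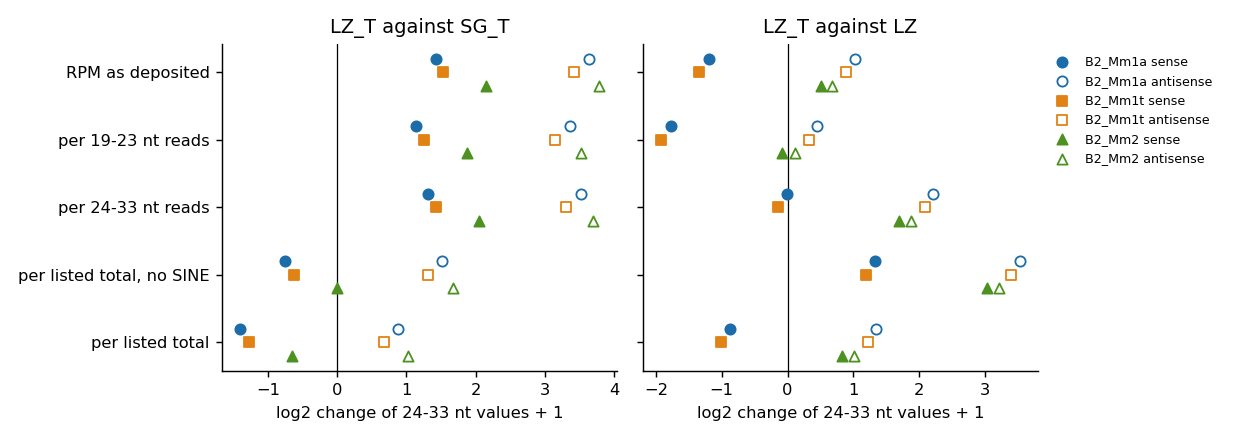
Log2 change of 24-33 nt values + 1 for each B2 sequence (filled, sense; open, antisense) under 5 scalings (rows), in LZ_T against SG_T (left) and LZ_T against LZ (right). Antisense changes stay above 0 in all 5 scalings in both comparisons, and sense changes cross 0 between scalings for all 3 sequences on the left and on the right.

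The antisense share of B2 24-33 nt reads was 15.0% and 17.1% in LZ and 34.8% and 35.2% in LZ_T, a difference of 19.01 points that exceeded the SD of both groups (p = 0.333 in the exact permutation test, two-sided, again the lower limit). It was seen in B2_Mm1a, at 10.6% ± 1.44 (SD, n = 2) in LZ and 35.6% ± 1.11 in LZ_T, and in B2_Mm1t, at 11.2% ± 0.968 and 37.6% ± 0.176. B2_Mm2 was at 30.9% ± 0.496 and 33.5% ± 0.196, a difference of 2.54 points. In LZ, B2_Mm2 thus stood apart from B2_Mm1a and B2_Mm1t, while in LZ_T the 3 means lay between 33.5% and 37.6%. Sense reads of 28-33 nt made up 28.4% ± 0.277 (SD, n = 2) of B2 sense 24-33 nt reads in LZ and 51.0% ± 0.421 in LZ_T, a difference of 22.6 points. The same sense share of B1 was 24.3% ± 2.63 in LZ and 58.7% ± 0.621 in LZ_T. B2 antisense reads overlapped in this measure, at 49.1% ± 6.27 and 50.1% ± 0.474. The share of 24-33 nt in all B2 reads also overlapped, at 43.6% ± 2.42 in LZ and 42.5% ± 2.06 in LZ_T (exact permutation test, two-sided, p = 0.667). LZ had 50-bp runs only, whereas the LZ_T values average 50-bp and 100-bp runs. In the 50-bp runs alone, both LZ_T samples had a lower share than both LZ libraries. The first LZ_T sample had 1264 RPM of 11-18 nt and 1212 RPM of 24-33 nt reads in its 50-bp run. In its 100-bp run it had 764 and 2046 RPM. The overlap thus depended on the runs used.

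By length class, 9 of the 30 B2 values passed in LZ_T against LZ, 4 of them higher and 5 lower, where 8.36% of 1136 values were called higher and 42.8% lower. The higher ones were antisense 24-27 nt reads of B2_Mm1a, with a log2 change of 1.17 (adjusted p = 0.0083, limma), and of B2_Mm1t, with one of 0.99 (adjusted p = 0.025), and 28-33 nt reads of B2_Mm2 on both strands. B2_Mm2 sense 28-33 nt reads were at 95.4 and 119 RPM in LZ and 273 and 325 RPM in LZ_T, a log2 change of 1.47 (adjusted p = 0.012). The lower ones included sense 24-27 nt reads of B2_Mm1a, at 536 and 598 RPM against 161 and 190 RPM, and of B2_Mm1t, with log2 changes of -1.69 and -1.68 and an adjusted p of 0.0024 each. The other 3 were 11-18 nt reads. No 19-23 nt and no 34-48 nt value of B2 passed. The count was 2 without the first LZ_T replicate and 4 without the second, and 21 per 24-33 nt reads and 24 per listed total without SINE. The shares over all values pool unlike fits, with 7.25% of sense values called lower at 11-18 nt and 59.8% at 19-23 nt.

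Among the B2 sequences, the division also differed between the sets. B2_Mm2 made up 25.8% ± 2.27 (SD, n = 2) of B2 24-33 nt RPM in LZ and 46.8% ± 0.572 in LZ_T, with the highest share in LZ_T, whereas B2_Mm1a was the largest in LZ at 42.0% ± 0.305. B2 and B1 parted as well. B2 was 40.1% ± 3.97 (SD, n = 2) of SINE 24-33 nt RPM in LZ, 9.09% ± 0.142 in LZ_T and 16.0% ± 1.45 in SG_T, against 41.8% in SG, 34.6% in PD and, in RS, 41.9%.

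The change from SG to L/Z was also set side by side between the sets, with only 1 library of SG in the first set. RPM was higher in LZ_T than in SG_T but lower in both LZ libraries than in SG. The difference of the log2 changes was 2.63 for B2_Mm1a (SE 0.58, adjusted p = 0.0050), 2.58 for B2_Mm1t (SE 0.57, adjusted p = 0.0051) and 2.94 for B2_Mm2 (SE 0.61, adjusted p = 0.0036) in a limma fit of 7 samples. All 3 passed, where 7.41% of 135 retrotransposons were called higher and 11.9% lower. The SG library had no replicate and was assumed to vary like the other groups, so what belongs to that 1 library and a difference between the sets cannot be told apart. Rescaled to the listed total the differences were -0.39, -0.43 and -0.051, and none passed; none passed either with a pseudocount of 0.1 or per listed total without SINE. The calls over all retrotransposons, 10 higher and 16 lower, were 10 and 30 per 19-23 nt reads, 21 and 7 per 24-33 nt reads, 0 and 50 per listed total and 0 and 32 without SINE. SG itself stood well above SG_T: the B2 sum was 3192 RPM in SG and 441 and 315 RPM in SG_T.

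The retrotransposons whose 24-33 nt levels were most like those of B2 were sought over the 9 biological samples, among 69 whose mean reached 10 RPM. IAPLTR1_Mm, a long terminal repeat of the IAP retroviruses, was the closest to all 3, with a Pearson's r of log2(RPM + 1) of 0.96 with B2_Mm1a, 0.98 with B2_Mm1t and 0.95 with B2_Mm2. IAPLTR1a_Mm came next, with r of 0.91, 0.95 and 0.90. The next was L1Md_A_5end, the 5′ region of a young LINE-1, for B2_Mm1a (r = 0.89) and B2_Mm1t (r = 0.91), and B1_Mus1 for B2_Mm2 (r = 0.89). B2_Mm1a and B2_Mm1t had r = 0.99 with each other, and each had r = 0.92 with B2_Mm2. These are descriptions over samples that share libraries and scaling, and the B2 sequences also share divided reads.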

How the data were processed

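Small RNAs of FACS-purified mouse germ cells had been sequenced from TruSeq libraries. Per the labels, the submitters' processing notes name cutadapt. The authors deposited, for each library, a list of trimmed sequences with raw counts and a table of RPM values, from which miRNA reads and those of abundant noncoding RNAs had been filtered out. SeqMap had placed what was left on retrotransposon consensus sequences, and a read with several matches was divided among them. The aligner version was not given in the sources used here. RPM of technical replicates was averaged. Sense and antisense RPM added up to the total within 0.01 RPM in all tables. Satellites, a noncoding RNA and stray names (6 names in the first set and 8 in the second) were left out. The main tests used limma (version 3.58.1, under R version 4.3.3) on log2(RPM + 1) of all retrotransposons whose mean reached 1 RPM. The p-values were adjusted after Benjamini and Hochberg over all of them and called at 0.05; fold changes on this scale understate those of low values. Shares were compared with exact permutation tests (scipy 1.17.1), and intervals are Wilson's at 95%. The 5 scalings were RPM as deposited, RPM divided by the 19-23 nt or the 24-33 nt share of the list, by the 24-33 nt total of all listed retrotransposons, and by that total without SINE, the last chosen after seeing the data. Named were the 3 B2 and 3 B1 sequences and, for each B2 sequence, the 3 retrotransposons with the highest correlation. The members and lists were chosen with earlier results of these data known. Counts of the lists served for depth, length and miRNA markers, matched by the first 18 nt. miR-34c-5p, miR-143-3p and miR-145a-5p had no reference entry and were not analysed here.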

Additional observations from a re-analysis of the deposited data

Results flagged for a closer look

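For the 3 B2 sequences, the log2 change of 24-33 nt RPM from SG to L/Z differed between the sets in a limma fit of the difference. SG had 1 library, assumed to vary like the other groups, so what belongs to that library cannot be told apart from a difference between the sets. The difference was 2.63 for B2_Mm1a, 2.58 for B2_Mm1t and 2.94 for B2_Mm2. Per listed total it turned to -0.39, -0.43 and -0.051, and 0 of the 3 passed there, per listed total without SINE or with a pseudocount of 0.1. In RPM the sequences were higher in both LZ_T samples than in both SG_T samples and lower in both LZ libraries than in the 1 SG library. Genotype, preparation and run cannot be told apart between the sets, apart from run length. The first set had 50-bp runs only, and each sample of the second set had a 50-bp and a 100-bp run. miR-202-5p, at 3899 to 6266 RPM in LZ_T against 421 to 450 RPM in SG_T, moved with the RPM within the second set. Between the sets it was higher in the second set at both stages, where B2_Mm1a and B2_Mm1t were lower. Its part was not tested.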

How the results depend on the processing

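The listed total without SINE and the crossed replicate numbers were chosen after seeing the data. In all alternatives, the 3 B2 sequences stayed higher in LZ_T than in SG_T on the antisense strand. In total RPM 2 passed, as lower, per listed total and 0 per listed total without SINE, and on the sense strand likewise 2, as lower, and 0. The log2 changes that turned were -0.92, -0.81 and -0.27 (B2_Mm1a, B2_Mm1t, B2_Mm2) in total and -1.40, -1.27 and -0.65 in sense RPM per listed total, and -0.27 and -0.16 in total (B2_Mm1a, B2_Mm1t) and -0.75, -0.62 and -0.0051 in sense RPM without SINE. For LZ_T against LZ, where 0 passed in total RPM, 2 passed with no filter, per 19-23 nt reads, with technical replicate 1 only and with all 9 samples in 1 fit, 1 per listed total and per 24-33 nt reads, and 3 per listed total without SINE. On the sense strand 2 became 1 with a pseudocount of 0.1, per 24-33 nt reads or with technical replicate 2 only, and 3, now all higher, without SINE. On the antisense strand 2 became 0 with a pseudocount of 0.1, per 19-23 nt reads or with technical replicate 1 only, and 1 with a mean of at least 10 RPM. Turned log2 changes were 0.47 and 0.36 (B2_Mm1a, B2_Mm1t, total, per 24-33 nt reads), 1.81 and 1.70 (total) and 1.34 and 1.19 (sense) without SINE, and for B2_Mm2 per 19-23 nt reads -0.017 in total and -0.077 in sense RPM. For the difference between the sets, 3 became 0 with a pseudocount of 0.1, per listed total (-0.39, -0.43 and -0.051) and without SINE. The class counts of 21 and 9 became 13 (LZ_T against SG_T) and 24 (LZ_T against LZ) without SINE, and for LZ_T against LZ 15 per listed total, 14 per 19-23 nt reads, 21 per 24-33 nt reads and 5 with technical replicate 1 only. The 24-33 nt share of B2 reads, -1.15 points in LZ_T against LZ, was 2.46 points with technical replicate 2 only. Without 1 replicate in turn, 3 passed each time in LZ_T against SG_T and in the difference between the sets, 0 to 2 in total, 0 to 3 in sense and 0 to 3 in antisense RPM in LZ_T against LZ, 12 to 18 and 2 to 10 class values, and that share differed by -2.86 to 0.56 points. Stage log2 ratios of the B2 sum were, for SG to LZ (-0.59), -0.38 per listed total, -0.17 per 19-23 nt reads and -1.08 per 24-33 nt reads, for LZ to PD (-2.22), -1.32, -0.62 and -3.23 and, without SINE, -1.49, for PD to RS (-1.56), -0.34 per listed total and -0.38 without SINE, and for SG to RS (-4.37), -2.04, -2.43, -5.85 and -2.34. Without 1 LZ replicate, SG to LZ was -0.70 to -0.49 and LZ to PD -2.32 to -2.11. The cause of these shifts was not tested.

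The replicate numbers were taken as numbers only, with 2 pairs and no label of a shared source. Deviations of same-numbered samples correlated at 0.11 over 58 retrotransposons (LZ_T and SG_T) and at -0.19 over 136 (LZ_T and LZ). With the replicate block 3 B2 sequences passed in each of the total, sense and antisense fits of LZ_T against SG_T and 21 class values; in LZ_T against LZ 0, 1 and 1 passed and 8 class values. Crossing the numbers in LZ_T against LZ gave 2, 2 and 2 and 11 class values. Paired antisense-share differences were 22.9 and 19.01 points (exact p = 0.50, the smallest for 2 pairs). The smallest sample had 1810805 reads, so antisense B2 values of SG_T near 10 RPM rest on few reads.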

Other observations

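Reads of 34-48 nt, longer than piRNAs, were a larger part of B2 RPM in the set with technical replicates than in the first set. They made up 9.29% and 8.04% of B2 11-48 nt RPM in SG_T and 6.34% and 4.15% in LZ_T, against 2.85% in SG, 2.99% and 2.73% in the LZ libraries, 2.17% in PD and, in RS, 1.48%. The lists of the second set also hold reads of up to 49 nt, and those of the first set of up to 48 nt.

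The 2 runs of a sample differed in level and in length, while the strand difference between the groups was similar in both. B2 24-33 nt RPM of the first LZ_T sample was 1212 RPM in the 50-bp run and 2046 RPM in the 100-bp run, and that of the first SG_T sample was 322 RPM and 560 RPM. Their 11-18 nt reads went the other way, from 1264 to 764 RPM and from 755 to 372 RPM. The second samples differed less in 11-18 nt reads, with 1500 and 1408 RPM in LZ_T and 728 and 684 RPM in SG_T. Their 24-33 nt reads were at 1691 and 1909 RPM in LZ_T and at 249 and 382 RPM in SG_T. The antisense share differed between LZ_T and SG_T by 23.6 points in the 50-bp runs and by 22.4 points in the 100-bp runs.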
